A study of Mus musculus with 9 samples.

Results

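The genes described here encode the factors that start, extend and end protein synthesis and the aminoacyl-tRNA synthetases that charge transfer RNAs. They were taken by name. A gene was included if GENCODE M21 lists it as protein-coding and its symbol belongs to the eukaryotic initiation factors (Eif1 to Eif6), elongation factors (Eef), release factors (Etf1, Gspt) or cytoplasmic poly(A) binding proteins (Pabpc), or names a synthetase or the synthetase scaffold proteins Aimp1 and Aimp2. Of the 5301 genes in the table, 41 met this rule. Eif2ak2, an interferon-induced kinase, was left out, and Lars2, the mitochondrial leucyl-tRNA synthetase, was read apart because its values were unstable within a group.

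Total RNA was sequenced from mouse 6DT1 cells, a mammary tumor line from an MMTV-Myc tumor on the FVB/NJ background. To examine the transcriptome after depletion of Resf1, a retroviral silencing factor, cells with a scramble hairpin (shControl) were compared with cells carrying the shRNA H4 (shH4) or H6 (shH6) against Resf1, in 3 libraries per group. All 3 groups were transduced with lentivirus, selected with puromycin and then grown in it, and the labels call all of them wildtype. Puromycin ends nascent protein chains at the ribosome in cells that do not resist it. Its part in these results was not tested. The libraries of a group were dishes seeded together from 1 transduced line, so hairpin and line cannot be told apart and p-values measured only the spread between dishes.

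Initiation begins when eIF2 carries the initiator tRNA to the small ribosomal subunit, to which eIF3 also binds. eIF4F, the complex of eIF4E, eIF4G and eIF4A, brings this subunit to the capped mRNA. eEF1A then delivers each charged tRNA, eEF2 moves the ribosome along, and eRF1 with eRF3 releases the finished chain. Synthetases attach each amino acid to its tRNA, and several of them sit together in the multisynthetase complex. In tumor cells, MYC and mTORC1 are known to raise the output of this machinery, and amino acid shortage is known to act on it through the eIF2 alpha kinases and the transcription factor ATF4.

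The values were normalized counts, which are estimated reads per gene divided by a size factor per library. Each library held an estimated 10.5 to 19.9 M reads over the genes of the table. Every gene in the table differed from shControl in the mean of both hairpins, so the table is a selected one and the number of calls against shControl carries little information. The direction, the size and the comparison of the hairpins with each other are what could vary. The size was not free, since a gene with close replicates is called at a smaller change. The mammary epithelial markers Krt8 and Krt18 summed to 26584 to 28996 normalized counts in shControl. They summed to 22386 to 23863 in shH4 and 24795 to 27873 in shH6. The 6 others of the 8 looked for were not in the table. The endothelial markers Pecam1 and Cdh5 summed to 20.2 to 30.7 in shControl, 173 to 208 in shH4 and up to 31.2 in shH6, the leukocyte markers Itgb2 and Cd68 to 3482 to 3666, 2362 to 2512 and 2856 to 3053, and the fibroblast marker Pdgfra was at 69.7 to 108, 119 to 162 and 128 to 157. Their part in the results was not tested. In bulk RNA, fewer cells of a type and less RNA per cell cannot be told apart.

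To check the labels, Resf1 itself was read before any other gene. The designed sequences are shown with bases 2 to 8 in capitals. These are the seed if the printed strand is the one that guides silencing, which was not checked.
H4: tTTCGATTtgtaacataggtc
H6: aAACAACCaagttacctcagg
In normalized counts (mean ± SD, n = 3), Resf1 (ENSMUSG00000032712) went from 1585 ± 29.3 with the scramble hairpin to 982 ± 31.7 with H4, where it fell by 38.1%, and to 1121 ± 8.88 with H6, where it fell by 29.3%.

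Of 114 annotated genes that meet the naming rule, with Lars2 counted in, 42 (36.8%) were in the table, beside 4663 of 21951 protein-coding genes (21.2%). Those outside it were not analysed here. The coverage differed by role: 8 of 14 eIF3 subunits, 9 of 16 genes of the eIF4 group, 9 of 22 cytosolic synthetase and scaffold genes and 4 of 8 elongation factors were listed, while 4 of 18 genes of the eIF1, eIF2, eIF2B and eIF5 group, 2 of 3 genes for eIF5A and eIF6 and 1 of 10 release factor and poly(A) binding protein genes were. The subunits of eIF2 itself (Eif2s1, Eif2s2, Eif2s3x) were not among the listed genes, nor was Eif4ebp1.

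Set per kilobase of transcript, the levels of the 41 genes covered a wide range. The highest in shControl was Eef1a1, which encodes the tRNA-delivering factor eEF1A, at 193728 normalized counts per kilobase. Eef2, for the translocase, followed at 32511 and Eif5a, for the factor that relieves stalled ribosomes, at 10433. The next levels, 7598 for Eef1b2 and 6373 for the helicase gene Eif4a1, were also separated by more than their SDs of 183 and 148. At the other end stood Eif4ebp2, a repressor of eIF4E, at 143 and Eif4e3, an eIF4E homolog, at 107. Together the 41 genes held 4.90% of the column total in shControl, 4.58% in shH4 and 4.54% in shH6. Eef1a1 and Eef2 weighed most in this share, with means of 347548 and 100428 normalized counts in shControl. They fell to 307018 and 84799 in shH4 and to 299064 and 81781 in shH6. The share therefore says little about the other genes. Their replicates were close: the median coefficient of variation was 2.29%, 2.46% and 3.14% in shControl, shH4 and shH6, against 3.97%, 4.29% and 4.55% over all genes in the table.

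**Figure D1:**
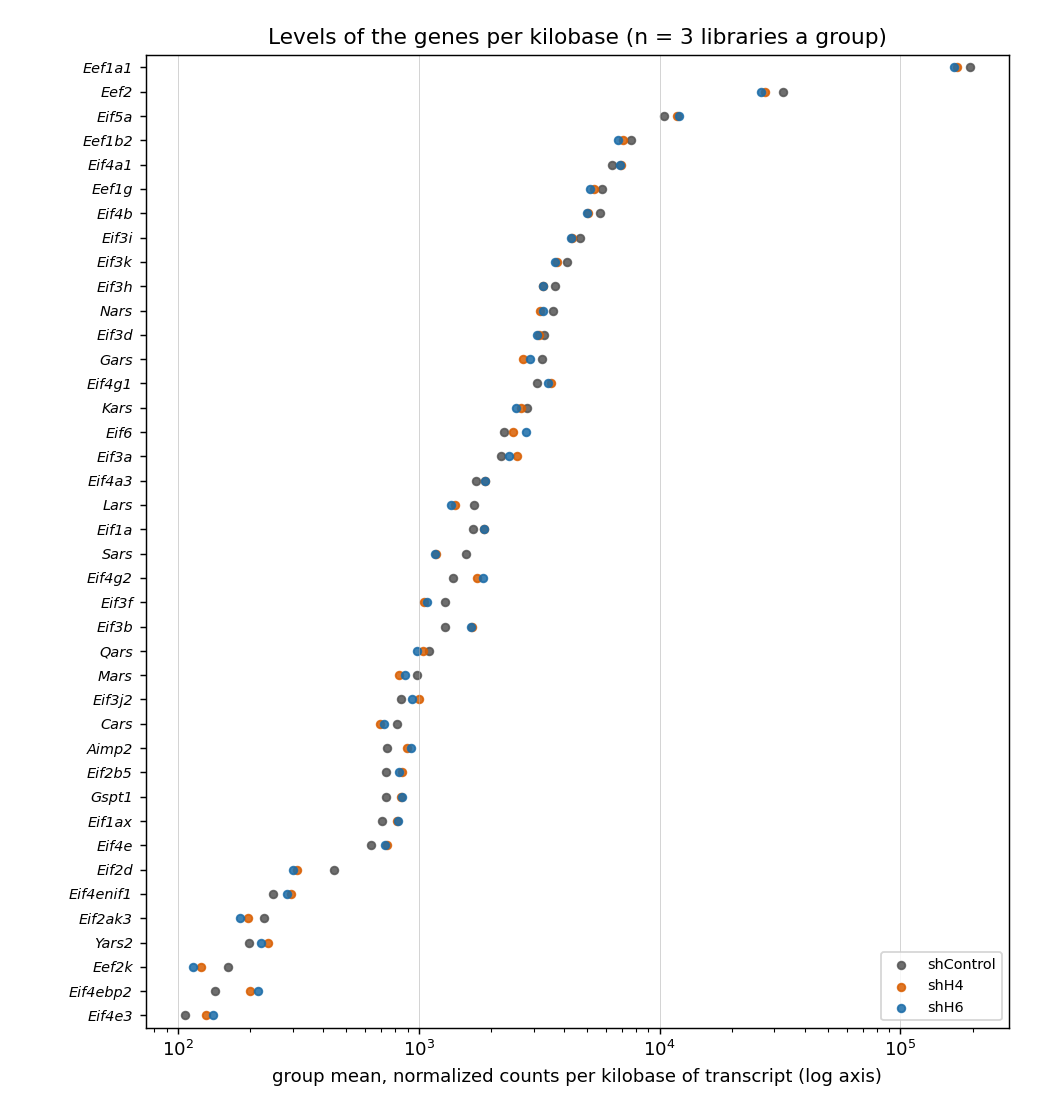
Mean level of 40 of the genes in normalized counts per kilobase of transcript (log axis), with 1 point per group (n = 3 libraries each). Eef1a1 and Eef2 stand above the rest, and the 3 groups of a gene lie close together compared with the distance between genes.

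Against shControl, the genes fell into a lower and a higher set that were the same in both hairpins. By limma with Benjamini-Hochberg adjustment, shH4 had 19 members higher and 22 lower at an adjusted p under 0.05, where 95.7% of all genes in the table were called (49.2% higher, 46.5% lower). The shH6 comparison also had 19 higher and 22 lower, where 96.1% of all genes were called (49.1% higher, 46.9% lower). The 19 that were higher and the 22 that were lower were the same genes in both, where 47.2% of all genes were called higher in both and 44.6% lower in both. Both comparisons used the same shControl libraries. For 39 of the 41 genes the 6 KD libraries did not overlap with the 3 shControl libraries (17 above, 22 below), where 86.4% of all genes did (43.5% above, 42.8% below). The 2 that overlapped were Eif3a and Eif4a3. For the mean of both hairpins, 100% of all genes were called (51.2% higher, 48.8% lower), the members included.

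The changes were small, and how far the selection of the table set their size was not tested. The members' median size of change, taken without sign on the log2 scale, was 0.21 with H4 and 0.18 with H6, where it was 0.27 over all genes in either case. In each hairpin, 29 members (70.7%) stayed under a 1.2-fold change, beside 49.2% and 48.0% of all genes. No member changed by more than 1.5-fold in shH4 and only Eif4ebp2 did in shH6, while 12.5% and 13.1% of all genes did. The lowest and highest log2 fold changes were −0.51 and 0.48 in shH4 and −0.56 and 0.59 in shH6.

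**Figure D2:**
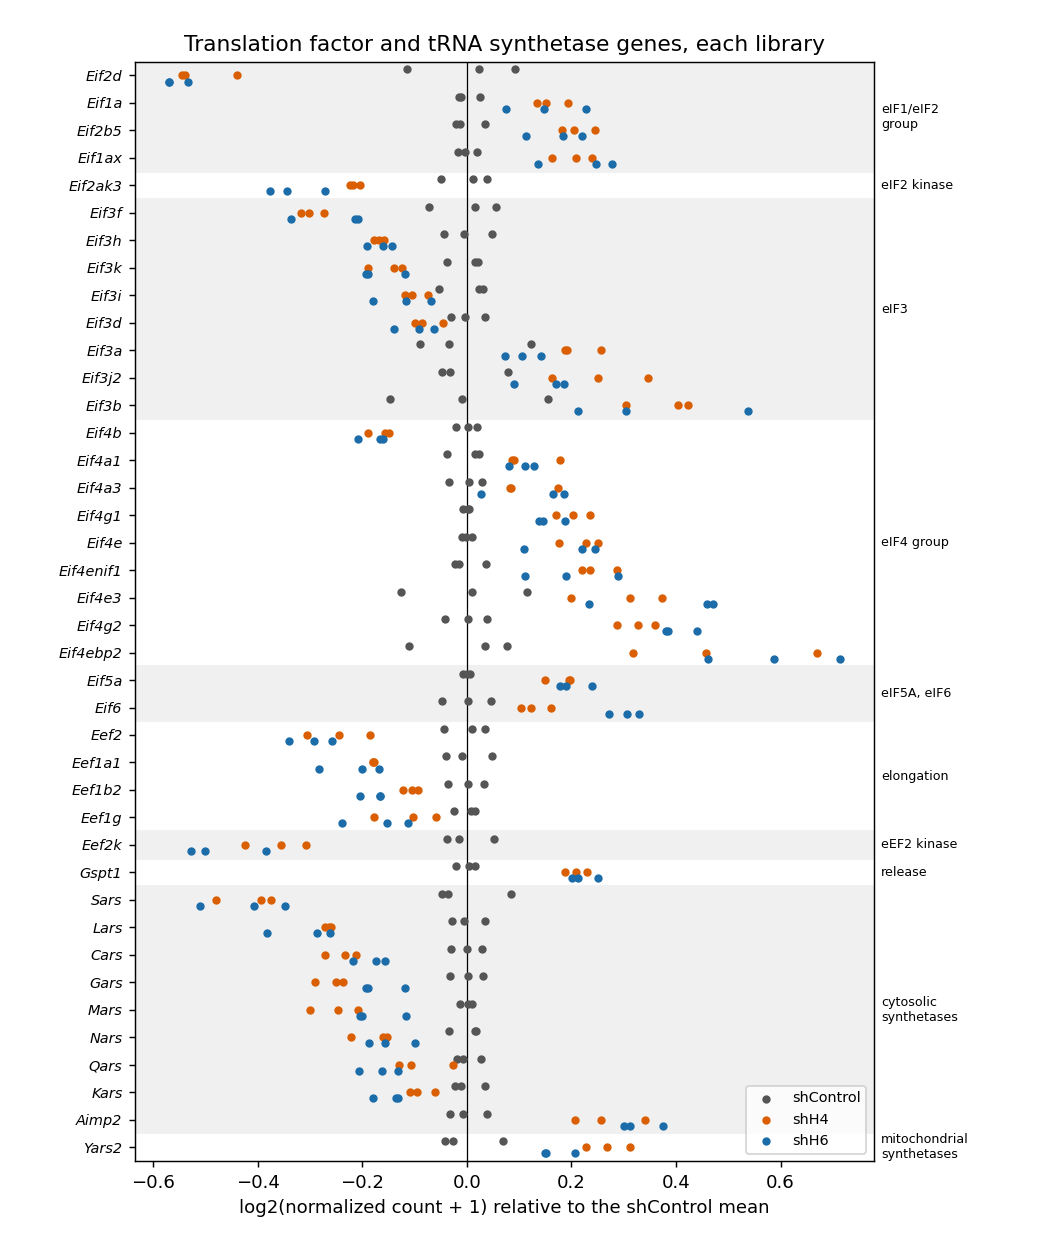
Each library's log2(normalized count + 1) for 40 of the genes, relative to the mean of the 3 shControl libraries, grouped by role (grey shControl, orange shH4, blue shH6). Elongation factors and cytosolic synthetases other than the scaffold gene Aimp2 lie left of the shControl points, and the eIF4 group other than Eif4b lies right of them, with overlap for Eif4a3.

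The cytosolic synthetases were lower in both hairpins. All 8 synthetase genes listed were called lower in both and the 1 scaffold gene, Aimp2, higher, where 44.6% of all genes were lower and 47.2% higher in both. The median log2 fold change of these 9 genes was −0.24 in shH4 and −0.17 in shH6, where the median over all genes was 0.10 and 0.09.

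Sars, for the seryl-tRNA synthetase, changed most among them. It was at 5935, 5419 and 5460 normalized counts in the shControl libraries, 4018, 4322 and 4261 in shH4 and 4223, 4402 and 3934 in shH6. The KD libraries did not overlap with shControl, and the hairpins lay on top of each other. The mean fell by 25.1% in shH4 (log2 fold change −0.42, SE 0.046, limma adjusted p = 1.18e-06) and fell by 25.3% in shH6 (log2 fold change −0.42, SE 0.046, limma adjusted p = 9.34e-07).

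Lars, for the leucyl-tRNA synthetase, which also serves as a leucine sensor for mTORC1, came next. Its values were 6903, 6612 and 6719 in shControl, 5621, 5635 and 5584 in shH4 and 5529, 5626 and 5174 in shH6. Again no KD library reached the shControl range. The log2 fold change was −0.26 in shH4 (SE 0.036, limma adjusted p = 9.61e-06) and −0.31 in shH6 (SE 0.036, limma adjusted p = 1.80e-06).

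The genes for the cysteinyl, glycyl and methionyl enzymes moved by similar amounts. Given in the order shH4 and shH6, their log2 fold changes were −0.24 and −0.18 for Cars, −0.26 and −0.17 for Gars and −0.25 and −0.17 for Mars. Nars, for the asparaginyl enzyme, gave −0.18 and −0.15. Qars, for the glutaminyl enzyme, gave −0.09 and −0.17. Kars, for the lysyl-tRNA synthetase, had the change nearest to 0 over both hairpins, at 6318, 6120 and 6078 in shControl, 5727, 5916 and 5777 in shH4 and 5452, 5631 and 5616 in shH6. Its libraries did not overlap with shControl, yet the step in shH4 was small, with a log2 fold change of −0.09 (SE 0.033, limma adjusted p = 0.0180) beside −0.15 in shH6 (SE 0.033, limma adjusted p = 6.25e-04). Its shH4 call was lost without shControl replicate 1 (log2 fold change −0.07, limma adjusted p = 0.0823) or shH4 replicate 1 (−0.08, limma adjusted p = 0.0569). The Qars call in shH4 was lost in 7 of 18 alternative settings, among them the replicate block and leaving out any shControl library or shH4 replicate 1 or 2, with a limma adjusted p of up to 0.134.

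Aimp2, a scaffold protein of the multisynthetase complex, went the other way. It was at 872, 900 and 857 in shControl, 1109, 1047 and 1011 in shH4 and 1079, 1136 and 1088 in shH6. All 6 KD libraries were above shControl, with a log2 fold change of 0.27 in shH4 (SE 0.049, limma adjusted p = 1.49e-04) and 0.33 in shH6 (SE 0.049, limma adjusted p = 2.16e-05). Of the 5 genes of that complex in the table, the enzymes Kars, Lars, Mars and Qars were thus lower and the scaffold higher.

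Among the mitochondrial synthetases, Yars2 was higher in both hairpins. Yars2, for the tyrosyl enzyme, was at 535, 541 and 578 in shControl, 684, 645 and 664 in shH4 and 636, 612 and 611 in shH6, higher in every KD library. Its log2 fold change was 0.27 in shH4 (SE 0.056, limma adjusted p = 4.22e-04) and 0.17 in shH6 (SE 0.056, limma adjusted p = 0.00954), and under upper quartile scaling the shH6 value of 0.12 missed the threshold (limma adjusted p = 0.0576).

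All 4 elongation factor genes in the table, of 8 listed, were lower in both hairpins, where 44.6% of all genes were. Their median was −0.15 (shH4) and −0.20 (shH6) on the log2 scale, beside 0.10 and 0.09 over all genes. Eef2 fell from 102880, 97346 and 101058 in shControl to 81244, 88354 and 84799 in shH4 and 81985, 84022 and 79336 in shH6. The mean fell by 15.6% in shH4 and fell by 18.6% in shH6, with no overlap (log2 fold change −0.24 and −0.30, SE 0.044 each, limma adjusted p = 1.34e-04 and 2.16e-05).

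Eef1a1 was at 359450, 337936 and 345259 in shControl, 307400, 306924 and 306730 in shH4 and 302313, 309403 and 285475 in shH6. The lowest shControl library was above the highest KD library, and the log2 fold change was −0.18 in shH4 (SE 0.055, limma adjusted p = 0.00636) and −0.22 in shH6 (SE 0.055, limma adjusted p = 0.00172). Eef1b2 and Eef1g encode subunits of the exchange factor that reloads eEF1A with GTP. Eef1b2 was at 14370 to 15078 in shControl, 13538 to 13816 in shH4 and 12789 to 13130 in shH6 (log2 fold change −0.11 and −0.18, SE 0.032 each, limma adjusted p = 0.00568 and 1.18e-04). Eef1g was at 10569 to 10876, 9502 to 10317 and 9117 to 9947 (log2 fold change −0.11 and −0.17, SE 0.039 each, limma adjusted p = 0.0119 and 9.62e-04). Neither gene overlapped with shControl. The Eef1g call in shH4 was lost without shH4 replicate 1 (log2 fold change −0.08, limma adjusted p = 0.0721). Of all 50-base windows in the Eef1a1 and Eef1g transcripts, 59.2% and 64.3% also occur in other annotated genes, processed pseudogenes among them, so their counts depend on how shared reads were assigned.

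Eef2k, the kinase that inhibits eEF2, was lower as well. It was at 1033, 1099 and 1050 in shControl, 790, 829 and 857 in shH4 and 749, 812 and 736 in shH6, with no overlap. The mean fell by 22.2% in shH4 and fell by 27.8% in shH6 (log2 fold change −0.36 and −0.47, SE 0.054 each, limma adjusted p = 2.21e-05 and 1.48e-06). Gspt1, for the release factor eRF3a, was higher, at 2673, 2719 and 2740 in shControl, 3179, 3087 and 3132 in shH4 and 3141, 3117 and 3224 in shH6. Its libraries did not overlap either (log2 fold change 0.21 and 0.22, SE 0.034 each, limma adjusted p = 5.50e-05 and 2.99e-05).

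In the eIF4 group, 8 of 9 genes were higher in both hairpins and Eif4b was lower, where 47.2% of all genes were higher and 44.6% lower in both. The group median was 0.22 (shH4) and 0.19 (shH6) on the log2 scale, beside 0.10 and 0.09 over all genes. Eif4ebp2 had the largest rise of all members. It was at 765, 870 and 845 in shControl, 1029, 1133 and 1313 in shH4 and 1241, 1137 and 1354 in shH6. Its shH4 libraries were widely spread but stayed above shControl. The mean was 40.1% higher in shH4 (log2 fold change 0.48, SE 0.079, limma adjusted p = 5.67e-05) and 50.5% higher in shH6 (log2 fold change 0.59, SE 0.079, limma adjusted p = 7.87e-06).

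Eif4g2 encodes a relative of the eIF4G scaffold that cannot bind eIF4E. It was at 10836, 11462 and 11172 in shControl, 14316, 13606 and 13999 in shH4 and 14516, 14567 and 15128 in shH6. Both hairpins were clear of shControl, by 25.2% and 32.1% of its mean (log2 fold change 0.32 and 0.40, SE 0.035 each, limma adjusted p = 7.53e-07 and 8.44e-08).

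Genes of the cap-binding complex itself rose less. In the order shH4 and shH6, the log2 fold change was 0.22 and 0.19 for Eif4e, the cap-binding protein, and 0.20 and 0.16 for Eif4g1, the scaffold. Eif4enif1, a carrier that takes eIF4E to the nucleus, gave 0.25 and 0.20, and Eif4e3 gave 0.29 and 0.39. Eif4a3 encodes a helicase of the exon junction complex that is an initiation factor by name only. It gave 0.11 and 0.13, with shH6 replicate 3 at 2667 inside the shControl range of 2555 to 2670. Its call was lost without shControl replicate 2 or shH4 replicate 1 in shH4, without shH6 replicate 1 or 2 in shH6, and under 2 of the scalings in both, with a limma adjusted p of up to 0.257.

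Eif4a1 had the smallest rise of the group that kept the groups apart, at 11005, 11492 and 11420 in shControl, 12788, 12026 and 11999 in shH4 and 12355, 12208 and 11958 in shH6 (log2 fold change 0.12 and 0.11, SE 0.035 each, limma adjusted p = 0.00516 and 0.00898). With upper quartile scaling both values were 0.06 and missed the threshold (limma adjusted p = 0.131 and 0.140), and 65.3% of its 50-base windows occur in other genes. Eif4b, which stimulates the eIF4A helicase, was at 22181, 21940 and 21573 in shControl, 19197, 19646 and 19746 in shH4 and 19593, 19509 and 18961 in shH6. It was below shControl in all 6 KD libraries (log2 fold change −0.17 and −0.18, SE 0.032 each, limma adjusted p = 2.55e-04 and 1.26e-04).

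Of the 8 subunits of eIF3 in the table, Eif3f, Eif3h, Eif3k, Eif3i and Eif3d were lower and Eif3a, Eif3b and Eif3j2 were higher in both hairpins, where 44.6% of all genes were lower and 47.2% higher in both. Eif3f was at 3087, 3280 and 3371 in shControl, 2605, 2685 and 2631 in shH4 and 2569, 2808 and 2796 in shH6 (log2 fold change −0.30 and −0.25, SE 0.043 each, limma adjusted p = 1.74e-05 and 7.45e-05). Eif3b, a core subunit that binds RNA, was at 3422, 4219 and 3762 in shControl, 5008, 4675 and 5080 in shH4 and 4675, 4388 and 5496 in shH6. The groups did not overlap for either gene, but the Eif3b libraries were far apart within shControl and within shH6 (log2 fold change 0.38 and 0.35, SE 0.073 each, limma adjusted p = 2.37e-04 and 3.92e-04).

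Eif3h was at 4623 to 4924 in shControl, 4210 to 4264 in shH4 and 4170 to 4313 in shH6 (log2 fold change −0.17 and −0.16, SE 0.034 each, limma adjusted p = 3.57e-04 and 3.98e-04). Eif3k changed by −0.15 and −0.17 on the log2 scale in shH4 and shH6, Eif3i by −0.10 and −0.12 and Eif3d by −0.08 and −0.10. The Eif3d and Eif3i calls were the least secure among the lower subunits. In shH4, that of Eif3d was lost in 7 of 18 alternative settings, the replicate block and leaving out shControl replicate 1 or 3, shH4 replicate 1 or 3 or shH6 replicate 1 among them (limma adjusted p up to 0.150), and that of Eif3i in 4, leaving out shControl replicate 1 or 3 or shH4 replicate 3 among them (up to 0.0718 by limma). In shH6, that of Eif3d was lost without shControl replicate 1 and under column total scaling (limma adjusted p up to 0.0898).

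Eif3a, the largest subunit, was 0.21 higher on the log2 scale in shH4 and 0.11 in shH6, where its call was lost in 6 settings, leaving out shControl replicate 1 or 3 or shH6 replicate 1 or 3 among them (limma adjusted p up to 0.246). In shH6 its 11887 to 12465 normalized counts overlapped with 10616 to 12304 in shControl. Eif3j2 was at 1944 to 2121 in shControl, 2248 to 2553 in shH4 and 2137 to 2284 in shH6 (log2 fold change 0.25 and 0.15, SE 0.049 each, limma adjusted p = 2.53e-04 and 0.00995). In shH6 its value was 0.10 with upper quartile scaling and missed the threshold (limma adjusted p = 0.0757). Of its 50-base windows, 91.8% are shared with other genes, most of them with its near copy Eif3j1, which was not in the table, so the 2 genes cannot be told apart.

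Among the factors for start codon selection, Eif2d fell furthest of all members. Its product can place initiator tRNA on the ribosome without eIF2 and helps to recycle ribosomal subunits. It was at 1570, 1361 and 1496 in shControl, 1010, 1014 and 1087 in shH4 and 992, 1018 and 993 in shH6. All KD libraries were far below shControl, and the mean fell by 29.7% in shH4 and fell by 32.2% in shH6 (log2 fold change −0.51 and −0.56, SE 0.053 each, limma adjusted p = 6.75e-07 and 2.46e-07).

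Eif1a and Eif1ax, a pair of genes for the scanning factor eIF1A, and Eif2b5, the catalytic subunit of the factor that recharges eIF2 with GTP, were higher. Eif1a was at 4758 to 4891 in shControl, 5271 to 5492 in shH4 and 5062 to 5624 in shH6 (log2 fold change 0.16 and 0.15, SE 0.039 each, limma adjusted p = 0.00136 and 0.00198). Eif1ax was at 3608 to 3699, 4087 to 4309 and 4013 to 4425 (log2 fold change 0.20 and 0.22, SE 0.039 each, limma adjusted p = 2.31e-04 and 1.12e-04). Eif2b5 was at 1846 to 1919, 2124 to 2220 and 2025 to 2184 (log2 fold change 0.21 and 0.17, SE 0.040 each, limma adjusted p = 2.15e-04 in shH4). None of these 3 genes overlapped between KD and shControl.

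Eif2ak3 encodes PERK, the eIF2 alpha kinase of the endoplasmic reticulum. It was at 1033, 990 and 1053 in shControl, 889, 878 and 882 in shH4 and 789, 849 and 808 in shH6. The shH6 libraries were all below the shH4 libraries, which were all below shControl (log2 fold change −0.21 and −0.33, SE 0.049 each, limma adjusted p = 8.21e-04 and 1.86e-05). Eif5a was at 14922, 15003 and 15053 in shControl, 17193, 17176 and 16619 in shH4 and 16966, 17089 and 17708 in shH6, higher in all KD libraries (log2 fold change 0.18 and 0.20, SE 0.032 each, limma adjusted p = 1.19e-04 and 4.08e-05).

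Between the hairpins, these genes differed little. By limma, 1 of the 41 members was called between shH6 and shH4, where 8.26% of all genes were (3.89% higher in shH6, 4.38% lower). At an unadjusted p under 0.05 there were 8 of 41 (19.5%), beside 21.5% of all genes. The log2 differences of the members between shH6 and shH4 ran from −0.12 to 0.17, and a missed threshold does not show that the hairpins act alike on the other 40.

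The member called was Eif6, whose product keeps the large ribosomal subunit apart from the small one. It was at 3494, 3272 and 3388 normalized counts in the shControl libraries, 3683, 3782 and 3635 in shH4 and 4086, 4251 and 4184 in shH6. The 3 groups formed steps with no overlap, while Resf1 itself was lowest in shH4. The log2 fold change was 0.13 in shH4 (SE 0.036, limma adjusted p = 0.00360) and 0.30 in shH6 (SE 0.036, limma adjusted p = 2.20e-06), and the difference between them was 0.17 (SE 0.036, limma adjusted p = 0.00581). Without shH6 replicate 3, 2 members were called in place of 1.

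**Figure D3:**
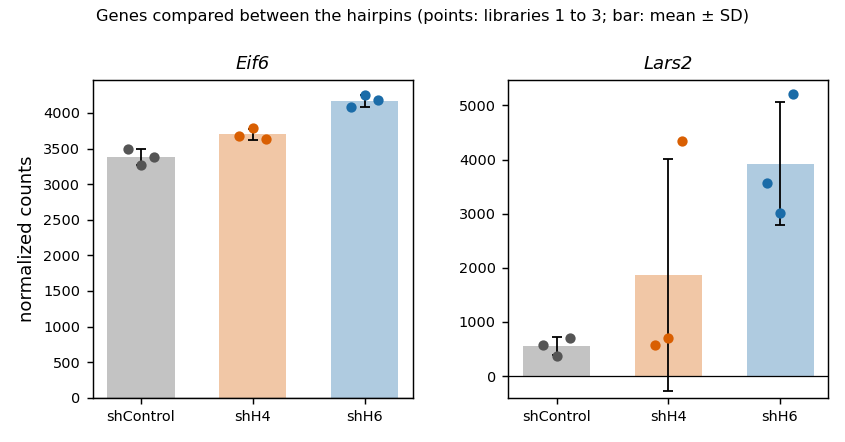
Normalized counts of Eif6 and Lars2 in each library (points), with the mean (bar, from 0) and SD (error bar) of the 3 libraries per group. Eif6 rises in steps from shControl to shH4 to shH6, and the third shH4 library of Lars2 lies among the shH6 values.

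Lars2 was read apart from the 41 genes. It was at 580, 375 and 713 normalized counts in the shControl libraries, 569, 699 and 4335 in shH4 and 3564, 3005 and 5203 in shH6. Within shH4, 2 libraries lay within the shControl range while the third lay among the shH6 libraries. The log2 fold change was 2.83 in shH6 (SE 0.488, limma adjusted p = 8.38e-05), the groups being apart. In shH4 it was 1.16 (SE 0.488, limma adjusted p = 0.0321), and the call was lost without shH4 replicate 3 (log2 fold change 0.23, limma adjusted p = 0.314) or shControl replicate 2 (0.90, limma adjusted p = 0.110). Between shH6 and shH4 the log2 difference of 1.67 (SE 0.488, limma adjusted p = 0.0429) became 2.60 without shH4 replicate 3 (limma adjusted p = 1.83e-05). That call was lost when shControl replicate 3, shH4 replicate 1 or 2 or any shH6 library was left out (log2 difference 1.13 to 1.84, limma adjusted p = 0.0508 to 0.226).

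The factors known as 5′ TOP mRNAs, whose transcripts begin with a run of pyrimidines and are held under the control of mTORC1, were all on the lower side. This list of 10 genes had 7 in the table (Eef1a1, Eef1b2, Eef1g, Eef2, Eif3f, Eif3h and Eif4b), and all 7 were called lower in both hairpins, where 44.6% of all genes were. At their median they changed by −0.17 (shH4) and −0.18 (shH6) on the log2 scale, beside 0.10 and 0.09 over all genes. Promoter windows from RefSeq (GRCm38.p6, 250 bases before to 50 after each start) were held for 29 of the 41 genes. The longest run of C and T near the start is shown in capitals for the 5 TOP genes with such a window, to let their starts be compared, with the first and last base of the run counted from the RefSeq start.
Eif3f (chr7:108934403-108934432, plus strand, run from −4 to 11): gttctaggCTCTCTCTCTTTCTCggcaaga
Eef1a1 (chr9:78481710-78481739, minus strand, run from −5 to 5): gctggctccgCCCTCTTCCCgagggtgggg
Eef2 (chr10:81176634-81176663, plus strand, run from 15 to 22): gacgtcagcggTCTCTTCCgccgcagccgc
Eif4b (chr15:102073748-102073777, plus strand, run from −13 to −7): atgtcgcgcaggTCTTCCCgtcggacgccg
Eef1b2 (chr1:63176814-63176843, plus strand, run from −4 to −1): cttggacctgcagTTCCgccggaagtagcc
A RefSeq start placed exactly on a C followed by 4 pyrimidines was found for Eif3f alone (3.45% of the 29 genes, beside 3.01% of the 27025 genes with such a window).

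MYC binds the E-box, spelled CACGTG on both strands, and 6DT1 cells derive from a Myc-driven tumor. An E-box was found in the window of 9 of the 29 genes (31%), beside 12% of 3665 protein-coding genes of the table and 8.09% of all 27025 genes with a window. Some genes have several starts in the reference. Counted per start, 27.5% of the 40 starts of these genes and 7.15% of all 32851 starts held one. Genes with the E-box were found among those that were lower (4 of 15) and those that were higher (5 of 14). A window is shown for 3 lower and 3 higher genes, with the E-box in capitals.
Eef2 (lower, chr10:81176576-81176605, plus strand): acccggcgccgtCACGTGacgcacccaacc
Eef2k (lower, chr7:120842788-120842817, plus strand): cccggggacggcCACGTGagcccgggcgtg
Eif3k (lower, chr7:28981915-28981944, minus strand): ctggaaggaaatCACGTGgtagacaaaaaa
Eif4g1 (higher, chr16:20672661-20672690, plus strand): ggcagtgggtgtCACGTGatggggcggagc
Eif4e (higher, chr3:138527192-138527221, plus strand): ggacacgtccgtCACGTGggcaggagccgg
Eif5a (higher, chr11:69921443-69921472, minus strand): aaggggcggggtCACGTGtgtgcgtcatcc
A match to these letters is a description of the sequence and says nothing about binding.

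The element through which ATF4 and its partners act, TGATGNAA on either strand, was found in the windows of Gars and Eef2k, 6.9% of the 29 genes, beside 2.7% of the protein-coding genes of the table and 4.51% of all. It reads in the reverse orientation in both, in capitals here.
Gars (lower, chr6:55037960-55037989, plus strand): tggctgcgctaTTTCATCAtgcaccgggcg
Eef2k (lower, chr7:120851094-120851123, plus strand): ctttctgcttgTTTCATCAagctcagcttg
A G-quadruplex motif, at least 4 runs of 3 or more G with loops of 1 to 7 bases on either strand, was found for 9 of 29 genes (31%), 7 of 14 higher and 2 of 15 lower ones, beside 33% of the protein-coding genes of the table and 20.4% of all. The lower genes had a median transcript length of 2772 bases and a GC content of 51.3%, the higher genes 2865 bases and 48.1%, while the median length over all protein-coding genes of the table was 2827 bases for the lower and 3586 for the higher ones.

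Genes of the amino acid response under ATF4 were described beside the synthetases, several of which are known ATF4 targets. Of 23 listed genes, 18 were in the table. In each hairpin 16 were called lower and 1 higher, where 46.5% and 46.9% of all genes were lower in shH4 and shH6. Of these, 15 were lower in both, beside 44.6% of all genes. At the median the list changed by −0.48 (shH4) and −0.44 (shH6) on the log2 scale, beside −0.24 and −0.17 for the cytosolic synthetase list and 0.10 and 0.09 over all genes. Atf3, a stress-induced transcription factor, ran from 117 to 127 normalized counts in the shControl libraries, 42.1 to 51.7 in shH4 and 29.9 to 62.0 in shH6 (log2 fold change −1.34 and −1.43, SE 0.200 each, limma adjusted p = 2.26e-05 and 1.21e-05). Chac1, which degrades glutathione, was at 277 to 329, 106 to 116 and 123 to 147 (log2 fold change −1.39 and −1.12, SE 0.103 each, limma adjusted p = 1.56e-08 and 1.59e-07). Both were apart from shControl in every library. The exception was Slc38a2, an amino acid transporter, which was higher (log2 fold change 0.22 and 0.25, limma adjusted p = 2.71e-04 and 7.85e-05). Cebpg, for a partner of ATF4, changed by −0.18 and −0.17 (limma adjusted p = 0.00285 and 0.00427). Vldlr in shH4 (log2 fold change −0.09, limma adjusted p = 0.0817) and Phgdh in shH6 (−0.06, limma adjusted p = 0.113) did not pass the test. Between the hairpins, 3 of the 18 genes were called, where 8.26% of all genes were: Ddit4 (0.41 higher in shH6 on the log2 scale, limma adjusted p = 4.41e-04), Atf4 (0.15 higher, limma adjusted p = 0.0208) and Vldlr (difference −0.18, limma adjusted p = 0.0208). Ddit4 and Atf4 were nonetheless below shControl in all 6 KD libraries, with log2 fold changes of −1.29 and −0.88 for Ddit4 (limma adjusted p = 1.08e-10 and 6.07e-09) and −0.25 and −0.10 for Atf4 (limma adjusted p = 2.61e-05 and 0.0180).

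Of 20 symbols listed for mTORC1 and the control of translation, 7 were in the table, and 6 were called higher in both hairpins, where 47.2% of all genes were. The list median was 0.26 in shH4 and 0.24 in shH6 on the log2 scale, beside 0.10 and 0.09 over all genes. Rptor, the mTORC1 subunit that recruits its substrates, ran from 1528 to 1589 normalized counts in the shControl libraries, 1872 to 1920 in shH4 and 1812 to 1998 in shH6, with no overlap (log2 fold change 0.28 and 0.27, SE 0.043 each, limma adjusted p = 3.14e-05 and 4.14e-05). Mlst8, another subunit, was higher by 0.26 and 0.36 (SE 0.087 each, limma adjusted p = 0.0106 and 0.00115), although its shH4 range of 379 to 482 overlapped with 339 to 401 in shControl. Pdcd4, an inhibitor of the eIF4A helicase, was the 1 lower gene. It was at 767 to 813 in shControl, 610 to 665 in shH4 and 493 to 546 in shH6 (log2 fold change −0.31 and −0.60, SE 0.058 each, limma adjusted p = 1.91e-04 and 2.82e-07), and it differed between the hairpins by −0.29 (limma adjusted p = 0.00469). Ppp1r15b, for a subunit of the phosphatase that acts on eIF2 alpha, had the smallest rise averaged over both hairpins (0.09 and 0.24, SE 0.035 each, limma adjusted p = 0.0177 and 1.61e-05) and was 0.15 higher in shH6 than in shH4 (limma adjusted p = 0.0137).

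Accessory factors outside the naming rule had 8 of 20 listed genes in the table, 6 higher and 2 lower in both hairpins (47.2% and 44.6% of all genes), with a median of 0.16 and 0.19 on the log2 scale. The helicase gene Ddx3x (log2 fold change 0.30 in both, limma adjusted p = 7.10e-06 and 8.27e-06) and Gtpbp1 (0.27 and 0.32, limma adjusted p = 1.33e-04 and 2.73e-05) were the highest of them. Gtpbp2, a factor that acts on stalled ribosomes, was lowest (−0.31 and −0.26, limma adjusted p = 1.37e-05 and 7.78e-05), followed by Hbs1l of the ribosome rescue pathway (−0.10 and −0.13, limma adjusted p = 0.0277 and 0.00558). Among mitochondrial translation factors, 2 of 17 were in the table and both were lower in each hairpin, where 44.6% of all genes were: Mtif2 for initiation (−0.17 and −0.19, limma adjusted p = 0.0176 and 0.0104) and Gfm2 for ribosome recycling (−0.12 and −0.18, limma adjusted p = 0.0273 and 0.00307).

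**Figure D4:**
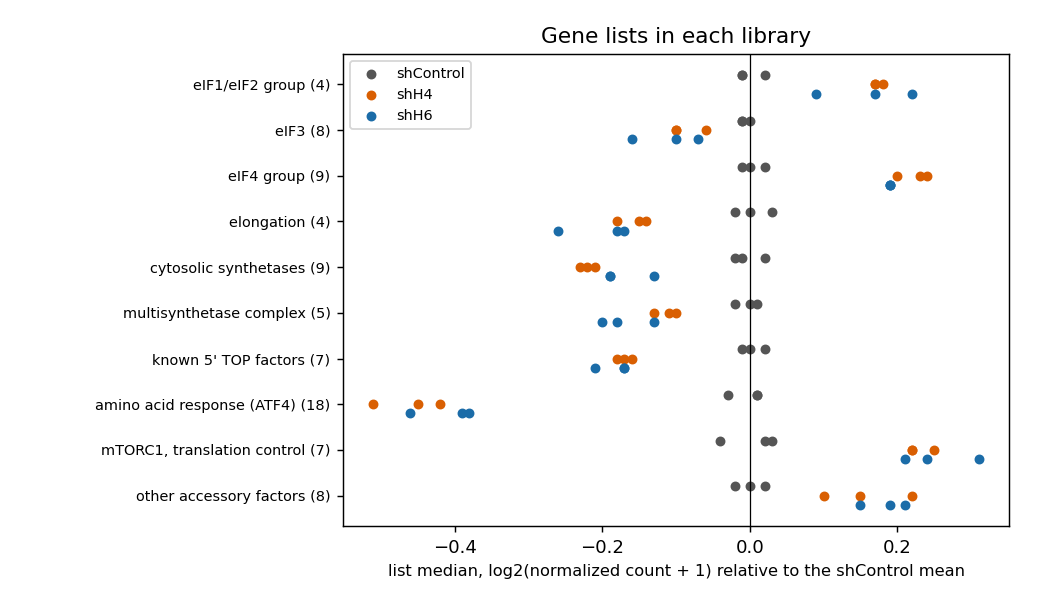
Median over each gene list of log2(normalized count + 1) relative to the shControl mean, 1 point per library, with the number of listed genes in brackets. In all 6 KD libraries the elongation, synthetase, 5′ TOP and amino acid response lists lie below the shControl points, and the eIF4, mTORC1 and accessory lists above them.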

How the data were processed

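RNA-seq libraries of 9 dishes of 6DT1 cells were made from total RNA with a stranded kit. Per the labels, the submitters' processing notes name STAR 2.7.8a in Partek, DESeq2 and the build mm39. The study's methods state normalization by median ratio and an FDR threshold, but name a human genome for the alignment; the identifiers in the table are mouse genes, and the build behind the values was not settled. The counting step, its annotation and its use of strand are not given in the sources used here, so overlapping and antisense genes cannot be told apart. The deposited values are a signal per gene: estimated counts divided by 1 size factor per library by the authors. Below 150 normalized counts, 72.3% to 77.2% of a library's values were whole multiples (within 0.02 reads) of 1 step, so the table did not give back whole reads and count tests were not used. Replicates differed by more than sampling noise (chi-square per gene 2.39 to 7.42), so none was counted as a copy.

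Gene identifiers were matched to GENCODE M21 (5258 of 5301, 99.2%). Values were taken as log2(value + 1), which understates changes of low genes, and fitted with limma 3.58.1 in R 4.3.3 with 1 mean per group over all 9 libraries, moderated with a trend. P-values are two-sided and adjusted by Benjamini-Hochberg over all 5301 genes, with a threshold of 0.05. The fit was tested on simulated data, which did not mimic the selection of the table. No filter was applied. Alternatives were a filter of 10 normalized counts, pseudocounts 0.5 and 10, 3 other scalings, a fit of 2 groups, library weights, the replicate block and leaving out each library.

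The 41 genes, the lists and the rule for named genes (the 2 highest and 2 lowest of each role, any gene called between the hairpins, Lars2, the 3 highest levels and Resf1; of other lists, at most the 2 highest and 2 lowest called in both hairpins) were chosen with earlier results of these data known. Lists were counted, not tested. Other members are named to account for them; 1 is counted but not reported here, and Vldlr, Phgdh, Ddit4 and Atf4 were named after their values were seen. Promoter sequences are RefSeq's, on GRCm38.p6, a build other than those named for the files.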

Additional observations from a re-analysis of the deposited data

Results flagged for a closer look

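Eif6 differed between the hairpins: its log2 value was 0.17 higher in shH6 than in shH4, with no overlap between their libraries. It was called in all 18 alternative settings, with a log2 difference of 0.16 to 0.19 and a limma adjusted p of 0.00253 to 0.0300.

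Lars2 was also called between the hairpins as reported, with a log2 difference of 1.67. Its shH4 replicate 3 stood at 4335 normalized counts beside 569 and 699 in the other shH4 libraries. The call was near the threshold (limma adjusted p = 0.0429) and was lost in 6 of 18 alternative settings, with a log2 difference as low as 1.13 without shH4 replicate 1 (limma adjusted p = 0.226), while it was 2.60 without shH4 replicate 3. It was these shH4 values that had set Lars2 apart, so the comparison is not an independent test of them.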

How the results depend on the processing

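Over 104 values and 18 alternative settings, no call changed direction. The number of members called between shH6 and shH4, 1 as reported, was 3 with column total scaling (3 higher), 3 with library weights (2 higher, 1 lower) and 1 to 2 over the fits that left out a library. Eif2ak3 was called with library weights (log2 difference −0.14, limma adjusted p = 0.0461). Against shControl, 41 calls in shH4 became 38 with upper quartile, 37 with column total and 40 with median ratio scaling, and 36 to 41 when a library was left out. In shH6 they became 36, 40 and 39, and 39 to 41. Eif6 in shH4 missed the threshold with upper quartile scaling (log2 fold change 0.07, limma adjusted p = 0.0812), and Kars in shH4 with column total scaling (−0.06, limma adjusted p = 0.0733). The scalings moved the median of all genes by at most 0.061 on the log2 scale.

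The labels number the libraries of each group, but same-numbered libraries did not deviate together: over 9 pairs the correlation ran from −0.155 to 0.108 and was over 0.1 in 1. With the replicate block, 39 members were called in shH4 (19 higher, 20 lower, Qars and Eif3d having lost their calls), 41 in shH6, 41 for the mean of both hairpins and 1 between the hairpins.

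In shH4, the calls of Qars and Eif3d were each lost in 7 of 18 settings. Depth of whole libraries was not analysed here.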
